A study of Mus musculus with 8 samples.

Results

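The serpins are a family of protease inhibitors and their non-inhibitory relatives, and their transcripts were followed here in whole mouse liver. Members were taken by name from clades a to i of the mouse serpin nomenclature after gene identifiers had been matched to symbols, and 2 pseudogenes with such names, Serpina3h and Serpinb10, were left out. This gave 61 serpin genes among the 56953 gene identifiers in the count data. The comparison has 4 HSC-PCK1-KO liver samples and 4 Control liver samples of wild-type genotype. HSC-PCK1-KO stands for loss of Pck1, the cytosolic phosphoenolpyruvate carboxykinase gene, in the hepatic stellate cell, which stores retinoids and turns into a matrix-producing myofibroblast when the liver is injured. All samples, knockout and wild type alike, came from males kept for 8 weeks on CDHFD, a high-fat diet without choline that gives fatty liver with inflammation and fibrosis. The labels used here do not name the Cre driver, the floxed allele, the strain or the age, and no other diet was analysed here. The study's title ties stellate cell PCK1 to liver fibrosis, and the comparison of genotypes asks which liver transcripts differ.

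An inhibitory serpin presents an exposed reactive centre loop as bait. The target protease cuts the loop after a residue called P1, the serpin snaps into a new fold, and the protease is left trapped and distorted in a complex that is cleared from blood. Hepatocytes secrete many of the serpins of plasma, among them alpha-1-antitrypsin, antithrombin, C1 inhibitor and alpha-2-antiplasmin. Several members no longer inhibit proteases and serve as hormone carriers or, in the case of HSP47, as a collagen chaperone. Clade B serpins stay inside cells and guard them against their own granule and lysosomal proteases.

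Library totals ranged from 47405693 to 49342122 counts in HSC-PCK1-KO livers and from 44695439 to 49477255 counts in Control livers. Levels are in CPM, the usual library-size scaled count, with TMM factors, which correct for differences in composition between libraries. All 10 hepatocyte markers were tested, and their summed level was 91967 to 110740 CPM in HSC-PCK1-KO livers and 91924 to 114034 CPM in Control livers. Pck1 (ENSMUSG00000027513.12) had 339, 795, 593 and 948 CPM in the HSC-PCK1-KO libraries, against 1002, 2012, 551 and 1028 CPM in the Control libraries. The groups overlapped, and because hepatocytes also express Pck1, whole-liver values cannot show whether stellate cells lost it. In bulk tissue, fewer cells of a type and less RNA per cell cannot be told apart. The sample titles carry different numbers, but no label ties each sample to a mouse of its own. The p-values therefore speak of the spread between these samples, and how much of it is technical is not known.

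No serpin passed the test for a difference between HSC-PCK1-KO and Control livers. Of the 61 members, 31 had enough counts to be tested. With edgeR's quasi-likelihood test and an adjusted p of 0.05 as threshold, none of them passed, and neither did any other of the 15669 genes tested (0%). The smallest adjusted p of a serpin was 0.9998. At an unadjusted p under 0.05 there were 0 of 31 serpins, beside 2.36% of all genes (370 genes), 1.02% higher and 1.34% lower. DESeq2 called 0 serpins and 6 of 15665 genes (0.0383%), and before adjustment 0 serpins and 366 genes had p under 0.05. By limma-voom with sample weights 0 serpins and 0 genes were called, and 0 serpins and 384 genes had p under 0.05 before adjustment. In no serpin did the 4 HSC-PCK1-KO values lie wholly above or below the 4 Control values, which was the case for 1.53% of all genes tested, 0.811% lower and 0.721% higher. Log2 fold changes, HSC-PCK1-KO minus Control, were negative in 17 serpins and positive in 14, with a median of -0.03 beside -0.01 over all genes tested. They ranged from -1.06 to 0.31.

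The intervals give the size of difference that the data still allow. In 26 of the 31 tested serpins (83.9%) the 95% interval of the fold change lay within a 2-fold difference in either direction, beside 86.7% of all genes tested. In 18 (58.1%) it lay within 1.5-fold, beside 66.8% of all genes. The median standard error (SE) of a log2 fold change was 0.18 for the serpins and 0.13 for all genes. In the other 13 the interval reached past 1.5-fold.

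**Figure D1:**
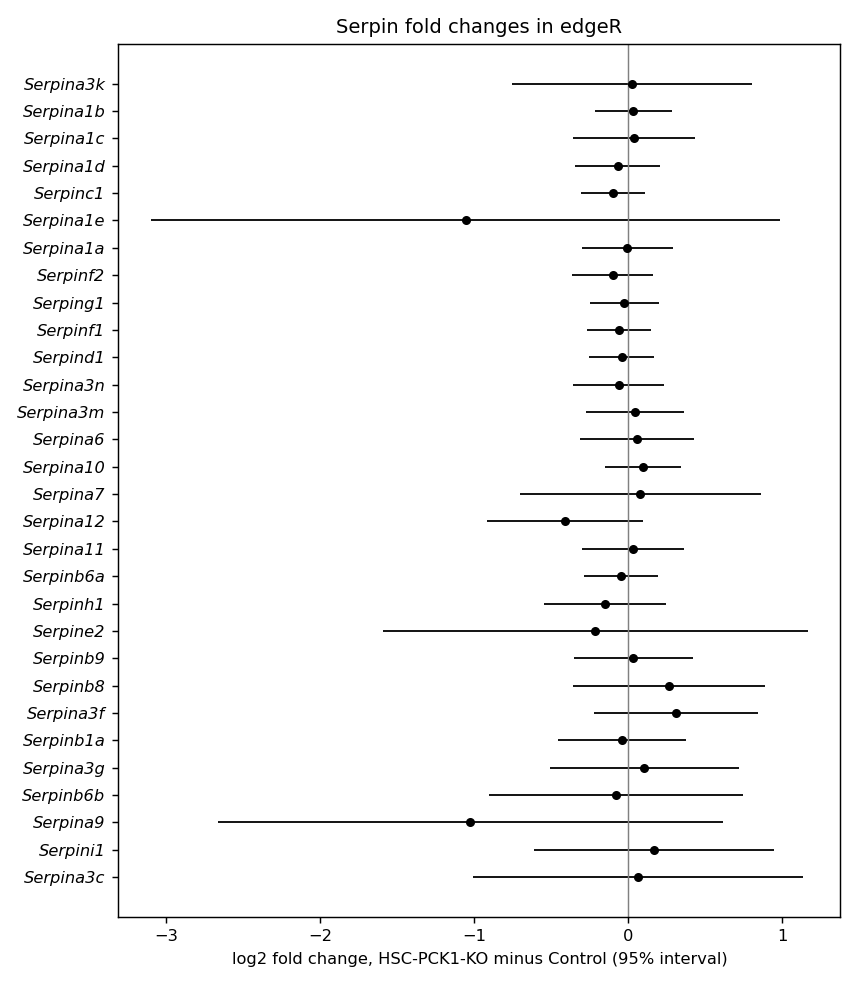
Log2 fold change of 30 of the 31 tested serpins, HSC-PCK1-KO minus Control, with the 95% interval from edgeR, in order of mean CPM from top to bottom. Every interval shown covers 0, the dots run from -1.06 for Serpina1e to 0.31 for Serpina3f, and the intervals of Serpina1e, Serpina9 and Serpine2 are the widest.

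Serpin transcripts made up 2.53%, 2.29%, 2.96% and 2.50% of all counts in the HSC-PCK1-KO libraries, against 2.06%, 3.65%, 2.77% and 2.28% in the Control libraries. The Control group held both the highest and the lowest share. The 6 genes with the most CPM, Serpina3k, Serpina1b, Serpina1c, Serpina1d, Serpinc1 and Serpina1e, held 78.7% of the serpin total. Per kilobase of transcript the mean level over the 8 libraries was highest for Serpina3k at 3008 CPM per kb. Serpina1b followed at 2769, Serpina1c at 2507, Serpina1d at 1862, Serpina1e at 1176 and Serpina1a at 768 CPM per kb. The plasma inhibitors of coagulation, fibrinolysis and complement stood lower per kilobase, with 429 CPM per kb for Serpinf2, 404 for Serping1, 377 for Serpinc1 and 237 for Serpind1. The place of Serpinc1 depends on the transcript used, which has 4970 bases, 1395 of them coding. Before scaling by length its mean of 1874 CPM was above those of Serpina1e (1852 CPM) and Serpina1a (1214 CPM). Serpinh1 had 7.58 CPM per kb and Serpine2 had 5.65. The order of Serpina3k and the Serpina1 copies is uncertain, because reads that match several copies may have been split or left out and the copies share more sequence than Serpina3k does. A mean of at least 100 CPM was found in 17 members, 11 of them on chromosome 12, which carries 23 of the 61 serpin genes.

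**Figure D2:**
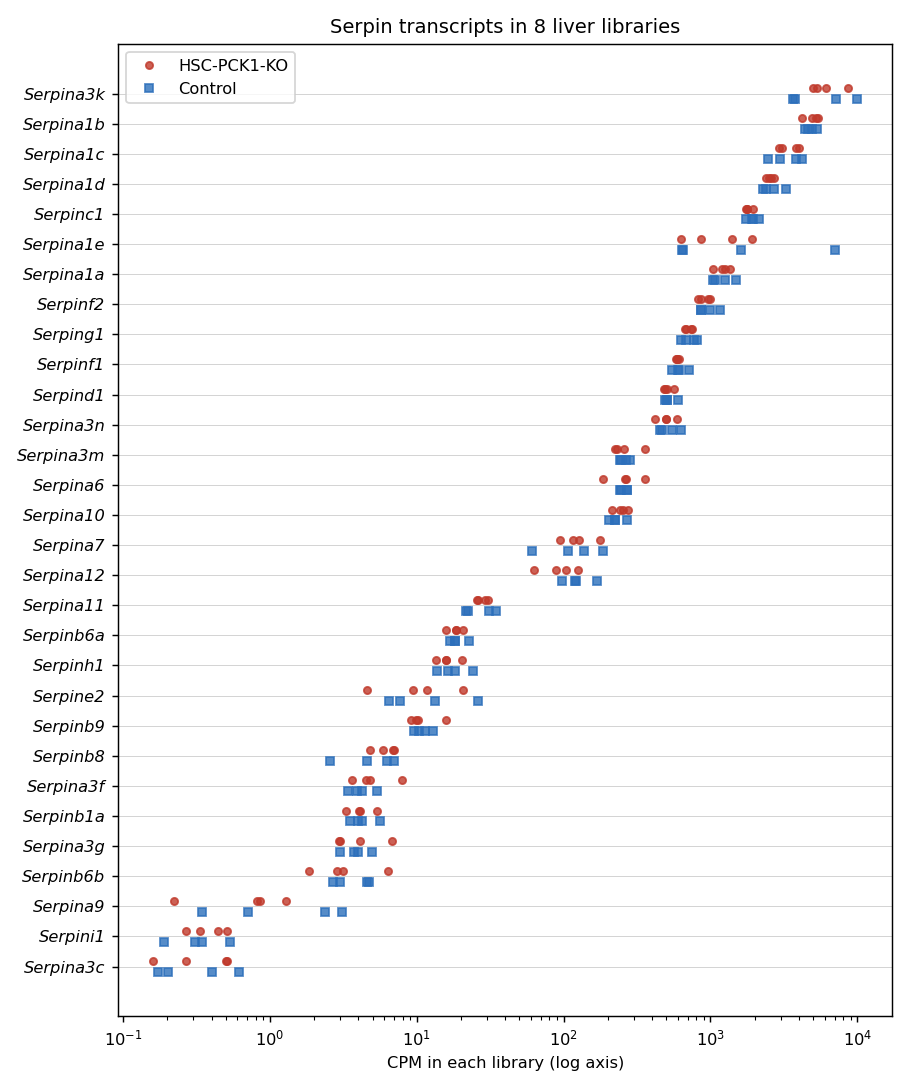
CPM of 30 of the 31 tested serpins in each library on a log axis, with HSC-PCK1-KO as red circles above Control as blue squares and genes in order of mean CPM. The 2 genotypes overlap in every gene shown. Serpina1e, Serpine2 and Serpina9 spread widely within both groups, while Serpinc1, Serpinf1 and Serpind1 form narrow bands.

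The members varied across the 8 libraries, and the ratios given here span both genotypes, so they do not measure spread within a genotype. The highest library was at least 2-fold above the lowest in 13 of the 31 tested serpins (41.9%), beside 26.1% of all genes tested. Among genes with a mean of at least 1 CPM these shares were 37.9% (11 of 29 serpins) and 13.4%. The median ratio of highest to lowest library was 1.72 for the 29 serpins and 1.37 for all such genes. Control replicate 2 had the highest CPM of the 8 libraries in 15 of the 31 serpins. Among them are Serpina1a, Serpina1c, Serpina1d and Serpina1e, which share sequence. The same count was not made over all genes tested, so it cannot show whether this is particular to serpins. Without Control replicate 2, 12 serpins had a negative log2 fold change, in place of 17.

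Serpina1a to Serpina1e are the mouse copies of the single human gene for alpha-1-antitrypsin, the plasma inhibitor of neutrophil elastase. Their coding sequences were 96.3% to 98.5% identical in pairs, with lower identity in the reactive centre loop. The 60 bases that code for 20 codons of the loop, from its hinge on, are given from the GENCODE M21 transcripts. The copies also differ outside this stretch. Capitals mark bases that differ from the most common base of the copies, and all bases at a position where the most common bases tie. In all, 13 of the 60 positions differ, and codon 17 is that of P1.
Serpina1a: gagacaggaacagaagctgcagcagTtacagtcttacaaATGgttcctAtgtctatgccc
Serpina1b: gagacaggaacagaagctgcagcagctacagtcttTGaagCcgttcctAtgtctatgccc
Serpina1c: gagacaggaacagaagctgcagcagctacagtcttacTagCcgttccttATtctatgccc
Serpina1d: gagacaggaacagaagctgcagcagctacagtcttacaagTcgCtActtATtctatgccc
Serpina1e: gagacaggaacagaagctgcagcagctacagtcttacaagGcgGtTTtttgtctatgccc
Codon 17 is Atg in Serpina1a and Serpina1b, tAT in Serpina1c and Serpina1d, and ttg in Serpina1e. The hinge codons at the start of the stretch are the same in all of them, and pairs of copies were 86.7% to 93.3% identical over the 60 bases. Of the 100-base windows of each transcript, the length of a read here, 58.5% in Serpina1c, 49.9% in Serpina1a, 29.3% in Serpina1d, 20.6% in Serpina1b and 14.8% in Serpina1e also occur in another gene. How reads that match several copies were counted, or whether they were left out, is not given in the sources used here, so the levels of the copies are uncertain.

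The 4 copies Serpina1a to Serpina1d had similar group means in both genotypes. Serpina1a (ENSMUSG00000066366.15) had 1364, 1038, 1251 and 1189.7 CPM in HSC-PCK1-KO livers, against 1048, 1495, 1251 and 1071 CPM in Control livers. The Control values enclosed those of the knockout except for its replicate 2, and the log2 fold change was -0.01 (SE 0.13, 95% interval -0.30 to 0.29, edgeR's unadjusted p = 0.961). Serpina1b (ENSMUSG00000071178.12) had 5419.7, 4877, 5213 and 4211 CPM in HSC-PCK1-KO livers, against 4432, 5348, 4879 and 4650.2 CPM in Control livers. Here the knockout held both the highest and the lowest value, with a log2 fold change of 0.03 (SE 0.11, 95% interval -0.22 to 0.28, edgeR's unadjusted p = 0.791). Serpina1c (ENSMUSG00000079015.3) had 4004, 2939.9, 3828 and 3059 CPM in HSC-PCK1-KO livers, against 2454, 4199, 3839 and 2973 CPM in Control livers. Its extremes were both Control libraries, and its log2 fold change was 0.04 (SE 0.18, 95% interval -0.36 to 0.44, edgeR's unadjusted p = 0.833). Serpina1d (ENSMUSG00000071177.5) had 2693, 2376, 2568 and 2494 CPM in HSC-PCK1-KO livers, against 2384, 3274, 2698 and 2278 CPM in Control livers. Only Control replicate 2 stood clear of the other values, and the log2 fold change was -0.07 (SE 0.12, 95% interval -0.35 to 0.21, edgeR's unadjusted p = 0.586).

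Serpina1e differed from its near-identical neighbours in how far it spread. Serpina1e (ENSMUSG00000072849.11) had 1405, 630.2, 1910.2 and 864 CPM in HSC-PCK1-KO livers, against 636, 7099, 1625 and 646 CPM in Control livers. The highest library was 11.3-fold above the lowest, both genotypes held low and high livers, and Control replicate 2 stood far above all others. The log2 fold change was -1.06 (SE 0.86, 95% interval -3.10 to 0.99, edgeR's unadjusted p = 0.261, exact permutation p = 0.743), and it was 0.31 without Control replicate 2 and -0.37 in limma-voom with sample weights. Serpina1e gave 9.44%, 5.31%, 12.9% and 7.31% of the counts of the 5 copies in the HSC-PCK1-KO libraries, against 5.80%, 33.2%, 11.4% and 5.56% in the Control libraries. Summing copies removes the question of how reads were split among them, but not that of reads left out. Serpina1a to Serpina1e together averaged 13334 ± 1726 CPM in HSC-PCK1-KO livers and 14570 ± 4786 CPM in Control livers (SD, n = 4 each), a log2 fold change of -0.13 (SE 0.21). Without Serpina1e the sum averaged 12132 ± 1232 CPM in HSC-PCK1-KO livers and 12068 ± 1796 CPM in Control livers (SD, n = 4 each), a log2 fold change of 0.01. Across the 8 libraries the highest sum was 1.96-fold above the lowest with Serpina1e and 1.39-fold without it, a sum added after the values were seen.

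**Figure D3:**
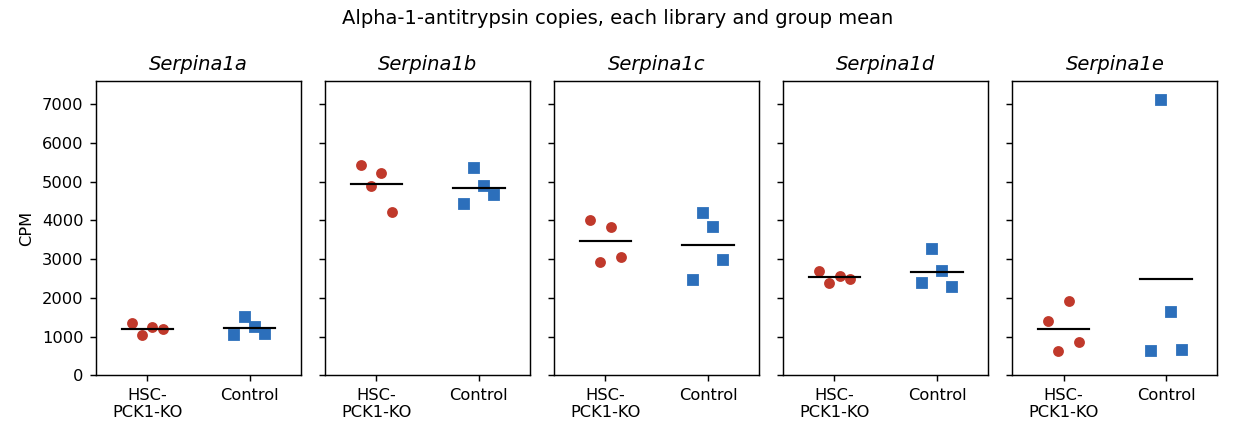
CPM of Serpina1a to Serpina1e in each library on a linear axis from 0, with HSC-PCK1-KO as circles left of Control as squares and the group means as bars. In Serpina1e, Control replicate 2 at 7099 CPM lies far above the other 3 Control libraries at 636 to 1625 CPM. Serpina1a to Serpina1d spread less, from 1.29-fold over all libraries in Serpina1b to 1.71-fold in Serpina1c.

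The copies share their upstream DNA as well. The 88 bases that all copies held within the 150 bases before each annotated start are given for comparison with the spread of Serpina1e. Their length is set by that limit, as the stretch begins at base 150 in Serpina1e and ends at base 1 in Serpina1d. They are from RefSeq's promoter windows on GRCm38.p6, minus strand, with capitals for bases that differ from the majority.
Serpina1a, chr12:103863625-103863712: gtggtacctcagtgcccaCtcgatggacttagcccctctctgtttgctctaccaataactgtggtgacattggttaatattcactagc
Serpina1b, chr12:103738200-103738287: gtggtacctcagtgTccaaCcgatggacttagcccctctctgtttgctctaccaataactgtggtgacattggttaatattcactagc
Serpina1c, chr12:103904962-103905049: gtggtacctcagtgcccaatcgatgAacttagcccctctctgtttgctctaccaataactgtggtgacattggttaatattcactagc
Serpina1d, chr12:103773634-103773721: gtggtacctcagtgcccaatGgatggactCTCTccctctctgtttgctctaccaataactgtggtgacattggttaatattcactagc
Serpina1e, chr12:103956960-103957047: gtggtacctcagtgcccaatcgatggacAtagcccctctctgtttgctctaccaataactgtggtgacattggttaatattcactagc
The stretch ends 6, 11, 12, 1 and 63 bases before the annotated start of Serpina1a, Serpina1b, Serpina1c, Serpina1d and Serpina1e. Pairs were 92.0% to 97.7% identical, 10 of the 88 positions differed, and Serpina1e departed from the majority at 1 position. The letters GTTAAT, an arm of the palindromic site of the hepatocyte factor HNF1, occur in the windows of all 5 copies. On either strand of the 300-base windows they were found in 8 of the 23 tested serpins that have an entry, the others being Serpina3c, Serpina7 and Serpinb8, and in 7.20% of all 27025 promoters. The STAT letters TTCNNNGAA were found in 4 of the 23, Serpina11, Serpina3f, Serpina3g and Serpinb6a, and in 8.47% of all promoters. The full HNF1 palindrome, the HNF4 letters CAAAGTCCA and the C/EBP letters TTGCGCAA were found in 0 of the 23 windows, and in 0.00740%, 0.477% and 0.185% of all promoters.

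The Serpina3 genes are a mouse cluster related to human alpha-1-antichymotrypsin, an acute phase inhibitor of neutrophil and mast cell proteases. Of the cluster, 6 members were tested, 1 with a negative and 5 with a positive log2 fold change, and none passed the adjusted p. The coding sequences of Serpina3f, Serpina3g, Serpina3k, Serpina3m and Serpina3n were 80.2% to 91.8% identical in pairs. Pairs with Serpina3g were aligned over only 642 to 744 bases, and Serpina3c was not compared. In the loop, the copies shown here parted further than the alpha-1-antitrypsin copies did. The same 60 bases are given for the 4 copies in which the hinge was found. Capitals mark bases that differ from the most common base, and all bases at positions where the most common bases tie.
Serpina3f: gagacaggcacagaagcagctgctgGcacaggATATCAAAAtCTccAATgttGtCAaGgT
Serpina3k: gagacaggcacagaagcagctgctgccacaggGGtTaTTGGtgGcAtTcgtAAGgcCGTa
Serpina3m: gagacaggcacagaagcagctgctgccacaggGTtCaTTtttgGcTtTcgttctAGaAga
Serpina3n: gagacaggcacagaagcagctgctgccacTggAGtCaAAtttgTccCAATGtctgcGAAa
Here 28 of the 60 positions differed and pairs were 61.7% to 78.3% identical. Windows of 100 bases shared with other genes made up 6.09% of Serpina3m, 4.85% of Serpina3k, 4.64% of Serpina3g, 3.58% of Serpina3f and 0.204% of Serpina3n.

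Serpina3k (ENSMUSG00000058207.7), the mouse trypsin inhibitor contrapsin, had 5298, 4971, 8588 and 6096 CPM in HSC-PCK1-KO livers, against 3633, 9995, 7166 and 3748 CPM in Control livers. Control livers held both extremes, 2.75-fold apart, and knockout livers lay between them. The log2 fold change was 0.02 (SE 0.34, 95% interval -0.76 to 0.80, edgeR's unadjusted p = 0.946, exact permutation p = 0.743), and without Control replicate 2 it was 0.36. Serpina3n (ENSMUSG00000021091.9), an acute phase inhibitor that in the mouse also blocks granzyme B, had 591, 418, 499.7 and 497 CPM in HSC-PCK1-KO livers, against 453, 545, 471 and 628 CPM in Control livers. The highest value was a Control and the lowest a knockout library, and the groups overlapped, at a log2 fold change of -0.06 (SE 0.13, 95% interval -0.36 to 0.23, edgeR's unadjusted p = 0.638). Serpina3m had 357, 232, 223 and 259 CPM in HSC-PCK1-KO livers, against 285, 268, 245 and 243 CPM in Control livers, and its log2 fold change was 0.04 (SE 0.14).

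Serpina3f and Serpina3g had low levels, and for both the highest value was that of HSC-PCK1-KO replicate 4. Serpina3f (ENSMUSG00000066363.13) had 4.83, 3.64, 4.49 and 7.99 CPM in HSC-PCK1-KO livers, against 3.94, 3.42, 4.23 and 5.32 CPM in Control livers. Its log2 fold change of 0.31 (SE 0.24, 95% interval -0.22 to 0.84, edgeR's unadjusted p = 0.227, exact permutation p = 0.429) was the most positive of the serpins. Serpina3g, an intracellular inhibitor of lysosomal cathepsins, averaged 4.22 ± 1.82 CPM in HSC-PCK1-KO livers and 3.92 ± 0.783 CPM in Control livers (SD, n = 4 each). Serpina3c stood under 1 CPM in all 8 libraries.

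Of the serpins that restrain coagulation, fibrinolysis and complement, Serpinc1, Serpind1, Serping1, Serpina10 and Serpinf2 ranged 1.22-fold to 1.42-fold over the 8 libraries. The median over all genes with a mean of at least 1 CPM was 1.37-fold, and the protease nexin-1 gene spread widely. Of the 7 tested in this group, 6 had a log2 fold change below 0 and 1 above, with a median of -0.10. None passed the adjusted p. Serpinc1 (ENSMUSG00000026715.13), the antithrombin gene, had 1939, 1782, 1743 and 1778 CPM in HSC-PCK1-KO livers, against 1919, 2128, 1962 and 1742 CPM in Control livers. All libraries lay within 1.22-fold, with the lowest and the highest both Control. The fitted log2 difference was -0.10 (SE 0.094, 95% interval -0.31 to 0.11, edgeR's unadjusted p = 0.321, exact permutation p = 0.314). Serpind1, which encodes heparin cofactor II, a second inhibitor of thrombin, averaged 511 ± 35.3 CPM in HSC-PCK1-KO livers and 527 ± 51.8 CPM in Control livers (SD, n = 4 each). Serpina10, the protein Z-dependent inhibitor of factor Xa, averaged 246 ± 26.4 CPM in HSC-PCK1-KO livers and 231 ± 28.7 CPM in Control livers (SD, n = 4 each). It was the member of the group with the positive log2 fold change, 0.10.

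Serpinf2, the alpha-2-antiplasmin gene, averaged 906 ± 81.7 CPM in HSC-PCK1-KO livers and 973 ± 142 CPM in Control livers (SD, n = 4 each). Serping1, which encodes C1 inhibitor, the brake on C1r, C1s, MASP proteases and plasma kallikrein, averaged 709 ± 39.5 CPM in HSC-PCK1-KO livers and 722 ± 82.2 CPM in Control livers (SD, n = 4 each). Their log2 fold changes were -0.10 and -0.03, and in both genes the ranges of the genotypes overlapped. Serpine2, which encodes protease nexin-1, an inhibitor of thrombin and urokinase, had 4.56, 11.7, 20.5 and 9.39 CPM in HSC-PCK1-KO livers, against 6.51, 26.2, 13.4 and 7.74 CPM in Control livers. It ranged 5.75-fold, with low and high livers in both genotypes, and its log2 fold change was -0.22 (SE 0.58).

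Of the members that do not inhibit proteases, 4 were tested, 2 with a negative and 2 with a positive log2 fold change. Serpina6 (ENSMUSG00000060807.8), the corticosteroid-binding globulin gene, had 357, 267, 185 and 264 CPM in HSC-PCK1-KO livers, against 271, 242, 247 and 270.4 CPM in Control livers. The knockout livers held both extremes and the Control livers lay close together, with a log2 fold change of 0.06 (SE 0.17, 95% interval -0.31 to 0.43, edgeR's unadjusted p = 0.734). Serpina7, the thyroxine-binding globulin gene, had 128, 178, 94.3 and 115.0 CPM in HSC-PCK1-KO livers, against 185, 60.6, 106.5 and 137 CPM in Control livers. The values ran over a 3.05-fold range within the Control group alone, which held the highest and the lowest library. Serpinf1, the gene of the secreted factor PEDF, averaged 594 ± 12.1 CPM in HSC-PCK1-KO livers and 619 ± 68.5 CPM in Control livers (SD, n = 4 each).

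Serpinh1 encodes HSP47, the chaperone that collagen-producing cells need to fold procollagen, and stellate cells are its main source in fibrotic liver. Serpinh1 (ENSMUSG00000070436.13) had 13.4, 15.9, 20.2 and 15.8 CPM in HSC-PCK1-KO livers, against 18.3, 13.7, 16.4 and 24.1 CPM in Control livers. HSC-PCK1-KO replicate 1 was the lowest and Control replicate 4 the highest, and the others overlapped. The log2 fold change was -0.15 (SE 0.18, 95% interval -0.55 to 0.24, edgeR's unadjusted p = 0.413, exact permutation p = 0.514). The 10 stellate cell markers, all tested, summed to 431 to 520 CPM in HSC-PCK1-KO livers and 489 to 595 CPM in Control livers. Their log2 fold changes were 8 negative and 2 positive, led by Rgs5 (0.25), Colec11 (-0.12) and Reln (-0.24). Over all genes tested, 51.8% were negative. Here and for the other lists, the genes said to lead are the 3 with the smallest unadjusted p, and the values in parentheses are log2 fold changes. The 6 mesothelial markers, all tested, summed to 2.97 to 5.59 CPM in HSC-PCK1-KO livers and 5.77 to 12.9 CPM in Control livers, ranges that did not overlap. All 6 had negative log2 fold changes, led by Upk3b (-1.79), Msln (-1.44) and Krt19 (-0.61), and none passed the adjusted p. Krt19 is also on the list of cholangiocyte markers, so this sum is not of mesothelial genes alone. The log2 fold change was below 0 in 15 of 16 tested collagen genes, with a median of -0.30, led by Col4a2 (-0.41), Col5a1 (-0.36) and Col6a2 (-0.71), and none passed the adjusted p. The part of these cells in the Serpinh1 values was not tested.

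The remaining secreted serpins gave the smallest p-values of the family, none of them under 0.05. Serpina12 (ENSMUSG00000041567.4), which encodes the adipokine vaspin, had 103, 63.1, 125 and 89.4 CPM in HSC-PCK1-KO livers, against 119.6, 168, 121 and 97.7 CPM in Control livers. The lowest 2 libraries were knockouts and the highest was a Control, but HSC-PCK1-KO replicate 3 lay above 3 of the 4 Control livers. Its log2 fold change was -0.41 (SE 0.22, 95% interval -0.92 to 0.10, edgeR's unadjusted p = 0.0996, exact permutation p = 0.2). Without HSC-PCK1-KO replicate 3 it was -0.57 with an unadjusted p of 0.0294 and an adjusted p of 0.999 in edgeR. Serpina9 (ENSMUSG00000058260.3), known in humans as centerin from germinal centre B cells, had 0.849, 1.29, 0.810 and 0.224 CPM in HSC-PCK1-KO livers, against 0.345, 3.09, 2.37 and 0.708 CPM in Control livers. Control replicates 2 and 3 stood above all knockout libraries and the other 2 did not, a 13.8-fold range in all. It gave a log2 fold change of -1.03 (SE 0.72, 95% interval -2.66 to 0.61, edgeR's unadjusted p = 0.188, exact permutation p = 0.429). Serpina11 averaged 27.9 ± 2.31 CPM in HSC-PCK1-KO livers and 27.4 ± 6.33 CPM in Control livers (SD, n = 4 each), and 42.4% of its 100-base windows are shared with the predicted gene Gm28577. Serpini1, the gene of neuroserpin, stood under 1 CPM in all 8 libraries.

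The intracellular clade B was sparse in these livers. Of its 26 members, 5 were tested, 3 with a negative and 2 with a positive log2 fold change, and 12 were listed at 0 in every library. Serpinb6a, an inhibitor of cathepsin G, averaged 18.4 ± 1.93 CPM in HSC-PCK1-KO livers and 19.0 ± 2.57 CPM in Control livers (SD, n = 4 each). Serpinb9, which protects cells against granzyme B, had 9.92, 10.2, 9.18 and 15.8 CPM in HSC-PCK1-KO livers, against 10.3, 9.55, 11.3 and 13.0 CPM in Control livers. Its highest value was again that of HSC-PCK1-KO replicate 4, and the other 3 knockout livers were at or near the lowest Control liver, with a log2 fold change of 0.03. Serpinb8 (ENSMUSG00000026315.14), a furin inhibitor in humans, had 5.88, 6.84, 4.82 and 7.03 CPM in HSC-PCK1-KO livers, against 6.25, 2.55, 4.57 and 7.03 CPM in Control livers. Control replicate 2 was the lowest library, in contrast to its place in many secreted serpins, and the log2 fold change was 0.27 (SE 0.28, 95% interval -0.36 to 0.89, edgeR's unadjusted p = 0.362, exact permutation p = 0.429). Serpinb1a, an inhibitor of neutrophil elastase and cathepsin G, averaged 4.21 ± 0.85 CPM in HSC-PCK1-KO livers and 4.34 ± 0.927 CPM in Control livers (SD, n = 4 each). Serpinb6b averaged 3.56 ± 1.97 CPM in HSC-PCK1-KO livers and 3.76 ± 1.06 CPM in Control livers (SD, n = 4 each).

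The 30 members that were not tested had too few counts. Of these, 16 had some counts, with means up to 0.136 CPM and at most 53 counts over the 8 libraries, and 14 were listed at 0 in all libraries. The first set includes Serpina5, the gene of protein C inhibitor, and the second Serpini2 and Serpina16.

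Neither the proteases that serpins inhibit nor the proteins they work with differed between genotypes past the adjusted p, and none of the lists had a member that did. Of 12 coagulation and fibrinolysis proteases tested, 8 had a negative and 4 a positive log2 fold change, with a median of -0.05, led by Hgfac (-0.17), F9 (0.17) and Klkb1 (0.10). Of 8 complement proteases, 4 were negative and 4 positive, with a median of -0.01, led by Masp1 (-0.09), C1ra (-0.06) and Cfi (0.04). Of 9 leukocyte granule proteases, among them the targets of Serpina1, Serpina3 and clade B, 4 had enough counts to test, led by Prtn3 (-0.58), Gzma (-0.15) and Gzmb (-0.08). All 9 summed to 0.885 to 2.78 CPM in HSC-PCK1-KO livers and 1.52 to 2.66 CPM in Control livers. Of 8 cofactors and clearance receptors, 5 were negative and 3 positive, with a median of -0.05, with log2 fold changes of -0.15 for Lrp1, which takes up serpin-protease complexes, and 0.38 for Vldlr.

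Cells that bring granule proteases or serpins of their own into the tissue were measured by their markers. Lymphocyte markers, 10 of 10 tested, summed to 6.13 to 10.6 CPM in HSC-PCK1-KO livers and 5.80 to 8.94 CPM in Control livers, led by Cd79a (0.65), Cd8a (0.95) and Cd3g (0.49). Neutrophil and mast cell markers, 4 of 9 tested, summed to 8.77 to 13.2 CPM in HSC-PCK1-KO livers and 6.93 to 16.4 CPM in Control livers, led by Kit (0.31), Csf3r (-0.14) and S100a9 (-0.13). Macrophage markers, 10 of 10 tested, summed to 286 to 504 CPM in HSC-PCK1-KO livers and 319 to 553 CPM in Control livers, led by Cd68 (-0.22), Csf1r (-0.21) and Ccr2 (-0.35). Endothelial markers, 8 of 8 tested, summed to 229 to 299 CPM in HSC-PCK1-KO livers and 255 to 296 CPM in Control livers, led by Clec4g (0.19), Stab1 (-0.10) and Cdh5 (-0.09). Cholangiocyte markers, 6 of 7 tested, summed to 35.2 to 81.3 CPM in HSC-PCK1-KO livers and 29.9 to 140.3 CPM in Control livers, led by Krt23 (0.96), Krt19 (-0.61) and Krt7 (-0.34). For hepatocytes the leading markers were Tat (-0.39), Cyp2e1 (0.13) and Hnf4a (-0.08). Log2 fold changes were negative in 7 of 10 macrophage, 6 of 8 endothelial, 6 of 10 hepatocyte and 4 of 6 tested cholangiocyte markers. They were negative in 2 of 10 lymphocyte markers and in 3 of 4 tested neutrophil and mast cell markers. None of these genes passed the adjusted p, and apart from the mesothelial list the summed levels of the genotypes overlapped. No marker was listed at 0 in all libraries.

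Across the 8 libraries Serpinh1 moved with the collagen genes. It was the only one of 3 planned relations between log2 CPM values to pass, with p-values adjusted over the 3. The gene lists were chosen with earlier results of these data known, so the p-values do not come from an independent choice of genes. Serpinh1 followed the mean of the 16 collagen genes, with a Pearson correlation of r = 0.879 (exact permutation p = 0.00437, adjusted p = 0.0131) and Spearman's rho = 0.833 (exact permutation p = 0.0154, adjusted p = 0.0461). On deviations from the genotype means r was 0.880 (exact permutation p = 0.0122, adjusted p = 0.0365). Leaving out HSC-PCK1-KO replicate 3 and Control replicate 4, the libraries farthest from the median of Serpinh1, r was 0.917 (exact permutation p = 0.0167, adjusted p = 0.05), which is not under the threshold. Without Control replicate 4 alone r was 0.773 (exact permutation p = 0.0440, adjusted p = 0.132), so the call rests on that library.

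Serpina3n did not pass with 18 other acute phase genes. Pearson's r was 0.633 (exact permutation p = 0.0907, adjusted p = 0.136) and Spearman's rho 0.571 (exact permutation p = 0.151, adjusted p = 0.227), and within genotypes r was 0.726 (exact permutation p = 0.0799). Without HSC-PCK1-KO replicate 2 and Control replicate 4, the libraries farthest from the median of Serpina3n, r was 0.482 (exact permutation p = 0.328). Control replicate 2 lay apart, with high Serpina3n and the lowest acute phase mean, and without it r was 0.902 (exact permutation p = 0.00873, adjusted p = 0.0220). Of the acute phase genes, 5 had a negative and 13 a positive log2 fold change, with a median of 0.10, led by Crp (0.19), Saa1 (1.62) and Orm1 (0.28), and none passed the adjusted p. Saa1, a serum amyloid A gene, had 1166 CPM in HSC-PCK1-KO replicate 1, which also had the highest Serpina3n of its group. The other HSC-PCK1-KO libraries had 79.5, 109.8 and 168 CPM, and the Control libraries had 115, 47.7, 102 and 231 CPM.

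Serping1, an interferon-inducible gene, showed no detectable relation with 19 interferon response genes. Pearson's r was 0.235 (exact permutation p = 0.571, adjusted p = 0.571) and Spearman's rho 0.167 (exact permutation p = 0.703, adjusted p = 0.703), and within genotypes r was 0.228 (exact permutation p = 0.523). Without Control replicates 1 and 2, the libraries farthest from the median of Serping1, r was 0.767 (exact permutation p = 0.108). The interferon genes had 14 negative and 5 positive log2 fold changes, with a median of -0.02, led by Bst2 (0.23), Oasl1 (-0.21) and Isg15 (-0.21), and none passed the adjusted p.

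Another 3 relations were picked after the values were seen and are given as descriptions, with no test. Serpina1e was set against the mean of 8 genes that are expressed more highly in male than in female mouse liver, Elovl3, Hsd3b5, Cyp2d9, Cyp4a12a, Cyp7b1, Selenbp2, Slco1a1 and Mup20. Pearson's r was 0.825 and Spearman's rho 0.762, and within genotypes r was 0.83. Without HSC-PCK1-KO replicate 2 and Control replicate 2, the libraries farthest from the median of Serpina1e, r was 0.661. It was 0.609 without Control replicate 2 alone and 0.842 without HSC-PCK1-KO replicate 2 alone. Selenbp2, a gene of this list, had 52.3, 85.0, 372 and 184 CPM in HSC-PCK1-KO livers, against 57.4, 971, 264 and 131 CPM in Control livers. Its highest library, like that of Serpina1e, was Control replicate 2, as it was for Hsd3b5, Cyp2d9, Cyp7b1 and Slco1a1. Elovl3, Cyp4a12a and Mup20 were highest in HSC-PCK1-KO replicate 3. Serpina7 and Serpina1e had a Pearson's r of -0.936 and a Spearman's rho of -0.952. Within genotypes r was -0.935, and without the same 2 libraries it was -0.811.

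Serpina3f and Serpinb9, found on different chromosomes, shared their highest library, HSC-PCK1-KO replicate 4. Pearson's r was 0.851 and Spearman's rho 0.548, and within genotypes r was 0.908. Without HSC-PCK1-KO replicate 4 and Control replicate 2, the libraries farthest from the median of Serpina3f, r was 0.447. It was 0.537 without HSC-PCK1-KO replicate 4 alone and 0.837 without Control replicate 2 alone.

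**Figure D4:**
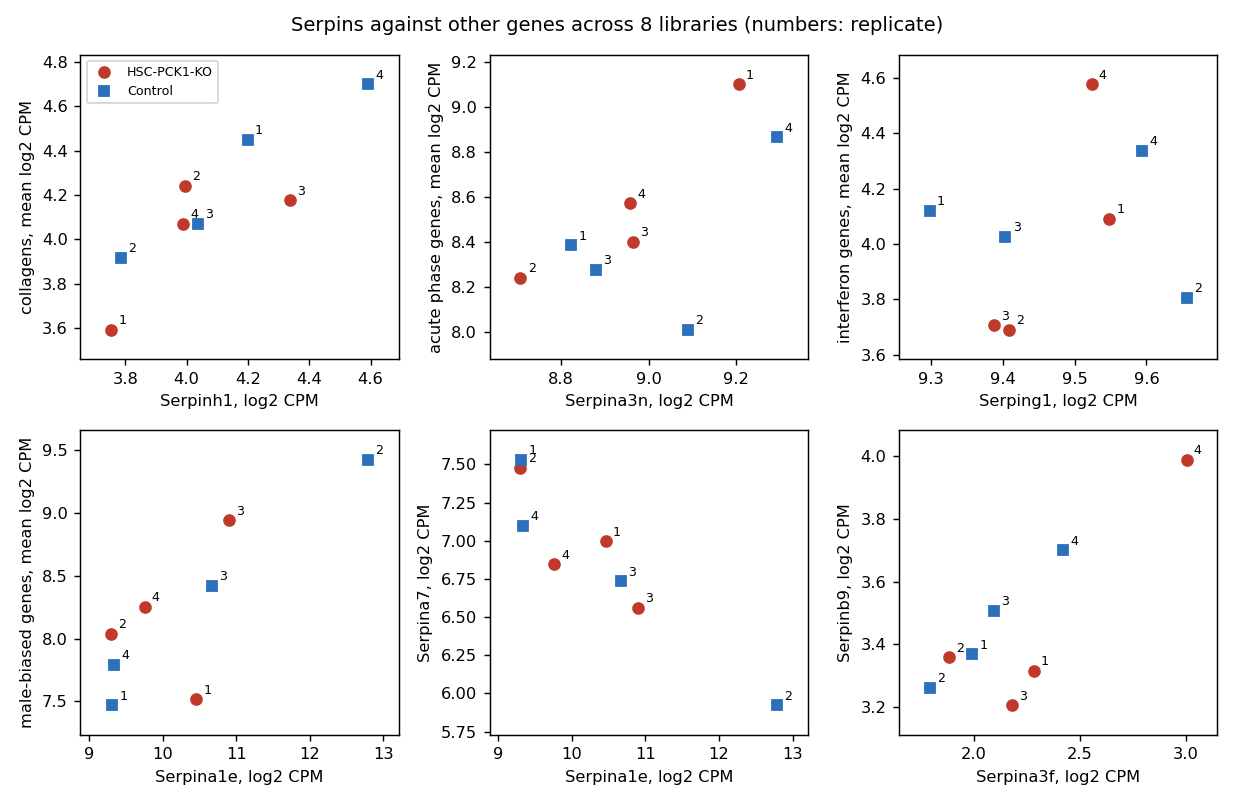
Each panel sets the log2 CPM of 1 serpin on the x axis against the mean log2 CPM of a gene list, or the log2 CPM of a second serpin, on the y axis, with 1 point per library, HSC-PCK1-KO as circles, Control as squares, and the replicate number beside each point. Serpinh1 climbs with the collagens (r = 0.879), Serpina7 drops as Serpina1e climbs (r = -0.936), and Serping1 is scattered against the interferon genes (r = 0.235). In the panels of Serpina1e the far right point is Control replicate 2, and in that of Serpina3f it is HSC-PCK1-KO replicate 4.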

How the data were processed

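Poly(A)-selected, strand-specific 100-base reads of whole liver were sequenced, per the labels' protocols. The authors deposited raw counts per gene for each of 8 libraries, with no normalization. The genome build was GRCm39 and R 4.3.2 was used, per the submitters' processing notes. Not given in the sources used here are the aligner, counter, annotation, strand setting and how reads with several matches were treated. GENCODE M21 (GRCm38) named 52029 of 56953 identifiers. Because the builds differ, no gene coordinates are given, and printed promoter coordinates are those of GRCm38.p6. 

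Counts were tested in R 4.3.3 with edgeR 4.0.16 (filterByExpr, TMM, robust quasi-likelihood F-test, genotype as the only term), with p-values adjusted by Benjamini-Hochberg over the 15669 genes that passed the filter, at a threshold of 0.05. Single members were also compared by an exact two-sided permutation test of log2 CPM (prior count 2) over the 70 assignments of libraries, whose smallest p is 0.0286. The 3 planned relations used an exact two-sided permutation of pairings, adjusted over the 3, and another 3 picked after the values were seen have no test. Per-length levels use the transcript with the longest coding sequence. Sequences were aligned with MAFFT 7.526.

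The serpin members and all gene lists were chosen with earlier results of these data known. Every serpin with a mean of at least 1 CPM is named. Full statistics go to the 6 with the smallest p and to Serpina1a to Serpina1e, Serpina3n, Serpina3k, Serpinc1, Serpina6 and Serpinh1. From every other list the 3 tested genes with the smallest p are named. Some genes that these rules took are not reported here, but stay in the counts and medians. Others were chosen with their values known. As alternatives, RLE or upper quartile factors, no filter or a minimum of 1 CPM in 4 libraries, DESeq2 1.42.0, limma 3.58.1 (voom with sample weights), a replicate block, an adjusted p of 0.1, summed copies and the omission of single libraries were run. For relations they were RLE factors, a prior count of 0.5, deviations from genotype means, and leaving out libraries. The edgeR steps were tested on simulated data. Libraries of a group differed in pairs beyond counting noise (chi-square per degree of freedom 48.7 to 184.9). Totals were 44695439 to 49477255 counts, and SE and intervals include this spread between libraries.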

Additional observations from a re-analysis of the deposited data

Results flagged for a closer look

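In 3 of the 64 sets of 4 libraries examined, a single library stood apart from the other 3 by Dixon's test at the 95% level, where chance gives about 3.2. Serpina1e had 7099 CPM in Control replicate 2, against 636 to 1625 CPM in the other Control livers. Serpind1, the heparin cofactor II gene, had 604 CPM in Control replicate 2, against 492 to 508 CPM in the other Control livers. Serpinb9, the granzyme B inhibitor gene, had 15.8 CPM in HSC-PCK1-KO replicate 4, against 9.18 to 10.2 CPM in the other knockout livers.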

How the results depend on the processing

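No setting called a serpin past the adjusted p of 0.05, and omitting libraries singly gave 0 to 0 serpins. Over all genes the count was 0 in edgeR, 6 in DESeq2 and 0 to 1 when each library was left out, the 1 without Control replicate 1. Of 434 values of 29 named members under these settings, 385 kept their direction and 49 reversed it, none past the threshold. Outside the fits that leave out a library, Serpina1a turned to 0.0016 with upper quartile factors and 0.0022 with the replicate block. With limma-voom, Serpina3m was -0.0049, Serpinb9 -0.042, Serpinb1a 0.073 and Serpina3g -0.073. Summed, Serpina1a to Serpina1e stood at -0.13 and Serpina1a to Serpina1d at 0.0075, beside a median of -0.0066 over the 5 copies. The cause was not tested.

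Log2 fold changes of 21 members changed sign when some library was left out, over ranges of -0.17 to 0.36 for Serpina3k, -0.019 to 0.099 for Serpina1b, -0.086 to 0.16 for Serpina1c, -0.13 to 0.046 for Serpina1d, -1.38 to 0.31 for Serpina1e and -0.072 to 0.11 for Serpina1a. They were -0.086 to 0.032 for Serping1, -0.11 to 0.017 for Serpinf1, -0.094 to 0.028 for Serpind1, -0.15 to 0.036 for Serpina3n, -0.13 to 0.12 for Serpina3m, -0.11 to 0.20 for Serpina6 and -0.15 to 0.35 for Serpina7. They were -0.065 to 0.16 for Serpina11, -0.11 to 0.052 for Serpinb6a, -0.27 to 0.018 for Serpinh1, -0.65 to 0.33 for Serpine2, -0.18 to 0.12 for Serpinb9, -0.18 to 0.11 for Serpinb1a, -0.23 to 0.24 for Serpina3g and -0.53 to 0.13 for Serpinb6b. In 8 members, among them Serpinc1, Serpinf2, Serpina10, Serpina12, Serpinb8, Serpina3f and Serpina9, the sign held in every setting run. The number of negative serpins ran from 12, without Control replicate 2, to 21.

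Leaving out each library gave r from 0.773 to 0.933 for Serpinh1 with collagens (adjusted p = 0.132 without Control replicate 4), 0.505 to 0.902 for Serpina3n (adjusted p = 0.0220 without Control replicate 2) and 0.102 to 0.549 for Serping1. In the relations without a test it gave 0.609 to 0.933 for Serpina1e with male-biased genes, -0.962 to -0.846 for Serpina1e with Serpina7 and 0.537 to 0.915 for Serpina3f with Serpinb9. Without the 2 libraries farthest from its median, Serpinh1 had r = 0.917 with an adjusted p of 0.05.

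Replicate numbers did not pair the libraries: deviations of same-numbered libraries correlated at -0.033, -0.329, -0.059 and 0.058. With the replicate block 0 genes and 0 serpins passed, 16 serpins were negative, Serpina1e stood at -0.22, and each HSC-PCK1-KO library correlated best with Control replicate 3, 4, 2 and 4 for replicates 1 to 4. With 4 libraries a group, the intervals of Serpina1e, Serpine2 and Serpina9 reach beyond 2-fold, and the counts cannot settle how reads were split among the Serpina1 copies or whether some were left out.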
